A study of Mus musculus with 20 samples.

Results

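The smooth muscle contractile genes were a set of 10 genes, Tagln, Tpm2, Acta2, Myh11, Cnn1, Mylk, Myl9, Smtn, Lmod1 and Actg2, out of 18193 genes that the array annotation names by 1 symbol. Tagln and Tpm2 were chosen by their measured difference from control in earlier results of these data, Tagln in the pitavastatin and rosuvastatin groups and Tpm2 in the rosuvastatin group, so those values are given as a description with no test. The other genes were added as known smooth muscle genes. Every probe set that carried 1 of these symbols alone was taken, 18 of the 45037 probe sets other than array controls.

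A smooth muscle cell shortens when actin filaments slide along myosin. The signal is calcium, which through calmodulin turns on the myosin light chain kinase encoded by Mylk; the kinase phosphorylates the regulatory light chain encoded by Myl9, and the smooth muscle heavy chain, Myh11, then pulls on actin. Transgelin (Tagln), tropomyosin (Tpm2), calponin (Cnn1), smoothelin (Smtn) and leiomodin (Lmod1) lie along the actin filaments. In a heart ventricle this apparatus is known from the walls of the coronary arteries and arterioles, while most of the muscle mass is cardiomyocyte with its own actin, myosin and light chains.

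The hearts came from 20 male C57BL/6J mice that arrived at 6 weeks of age and had 2 weeks of acclimation. For 4 weeks, 4 mice each ate chow mixed with powdered tablets of pitavastatin calcium at 4.5 mg/kg/day, pravastatin sodium at 21.0 mg/kg/day, rosuvastatin calcium at 10.9 mg/kg/day or atorvastatin calcium hydrate at 11.4 mg/kg/day, and 4 control mice ate standard chow alone. Statins inhibit HMG-CoA reductase, the rate-limiting enzyme of cholesterol synthesis. These were normal mice with no disease model, and the doses differ between statins, so the statins are set side by side and no pair of them was compared. RNA of the left ventricle of each mouse was hybridised to 1 Affymetrix whole-genome mouse expression array, and all values below are log2(signal + 16) unless a fold is named. A difference of 1 on this scale is a doubling of signal + 16, so it understates the change of dim probe sets. In whole-ventricle RNA, more or fewer cells of a type and more or less RNA per cell cannot be told apart.

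Of the 18 probe sets, 13 lay in the brighter 50% of the array by mean log2 value over 20 mice and were tested; they cover 8 of the 10 genes. The single probe sets of Cnn1 and Lmod1 fell below that limit, as did Acta2 1444105_at, Acta2 1456658_at and Mylk 1425504_at. Cnn1 ranged between 4.26 and 6.21 and Lmod1 between 5.20 and 7.33 over the 20 mice. Smooth muscle transcripts were therefore measured through Myh11, the defining heavy chain, and the actin-associated genes, but calponin and leiomodin were too dim for the comparison. Among cell types possibly carried along in dissection, 8 of 10 skeletal muscle markers and 7 of 8 epicardial markers also lay below the limit. So did the atrial markers Myl7, Sln and Bmp10, but the other 4, Myl4, Nppa, Dkk3 and Stard10, were measured. Myl4 ranged between 8.74 and 11.73 in the pitavastatin mice and between 8.90 and 11.58 in the rosuvastatin mice. Its range was 8.60 to 10.19 in pravastatin, 8.82 to 9.28 in atorvastatin and 8.66 to 10.30 in control mice.

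The median signal of an array ranged between 41.7 in rosuvastatin 3 and 144 in atorvastatin 2 (numbers after a group name are the labels' replicate numbers). Its log2 value averaged 6.75 ± 0.13 for pitavastatin, 6.68 ± 0.27 for pravastatin, 6.40 ± 0.38 for rosuvastatin and 6.70 ± 0.43 in atorvastatin hearts, and 6.78 ± 0.22 in control hearts (SD, n = 4 each).

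The promoters of 3 members are shown because their transcripts followed Tagln most closely or, for Acta2, because the gene is the standard smooth muscle marker. They are RefSeq sequences of GRCm38.p6, 250 bases before to 50 after the annotated start of the gene, written 5′ to 3′ on the strand of the gene. Capitals mark a CArG box, the site bound by serum response factor, in Myl9 and GGAATG, the reverse complement of the CATTCC site bound by TEAD factors, in Acta2.
Myl9 (chr2:156775214-156775513, plus strand): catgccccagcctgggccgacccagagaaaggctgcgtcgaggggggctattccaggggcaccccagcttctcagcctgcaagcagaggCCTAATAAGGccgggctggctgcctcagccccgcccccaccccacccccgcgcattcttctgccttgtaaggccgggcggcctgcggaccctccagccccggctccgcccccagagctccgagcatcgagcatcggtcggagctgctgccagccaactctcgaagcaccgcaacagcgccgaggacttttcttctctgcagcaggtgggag
Tpm2 (chr4:43523505-43523804, minus strand): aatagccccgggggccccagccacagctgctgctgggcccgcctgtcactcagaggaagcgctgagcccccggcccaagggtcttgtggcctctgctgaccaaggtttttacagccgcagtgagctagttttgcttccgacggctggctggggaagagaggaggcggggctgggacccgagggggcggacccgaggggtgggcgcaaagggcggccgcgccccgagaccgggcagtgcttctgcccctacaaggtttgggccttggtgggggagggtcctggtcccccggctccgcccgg
Acta2 (chr19:34255324-34255623, minus strand): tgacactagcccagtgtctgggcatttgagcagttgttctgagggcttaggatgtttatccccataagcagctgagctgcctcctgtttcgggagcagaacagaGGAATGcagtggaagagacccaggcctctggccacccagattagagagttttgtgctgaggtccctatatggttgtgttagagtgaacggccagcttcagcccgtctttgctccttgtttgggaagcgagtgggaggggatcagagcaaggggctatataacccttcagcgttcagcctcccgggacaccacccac

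The 3 motifs were searched on both strands in the 7 member promoters that were matched; Tagln, Myh11 and Actg2 were not analysed here. The CArG box was searched in its exact form only, CC and GG around 6 bases that are each A or T, and looser forms, such as those known for Acta2, were not counted. The exact form lay in 1 of the 7, that of Myl9 at position -161 from the start, and in 1.63% of all 32851 promoters. CATTCC or its reverse complement lay in 4 of the 7, Acta2 (-146), Lmod1 (-130), Mylk (-158) and Smtn (-222), and in 14.7% of all promoters. TATAAA lay in 0 of the 7 and in 13.6% of all promoters. No promoter of the 7 held more than 1 match. These matches are descriptions of the letters in the window and say nothing of whether a factor binds.

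Tagln, which encodes the actin-binding protein transgelin, had its highest group level in the rosuvastatin hearts. The 4 mice stood at 9.46, 10.40, 9.11 and 10.06 in the pitavastatin group, at 8.51, 9.18, 9.83 and 9.43 in the pravastatin group, at 9.69, 9.94, 10.09 and 10.08 in the rosuvastatin group and at 9.51, 9.20, 9.31 and 9.11 in the atorvastatin group, against 8.71, 8.57, 9.28 and 8.88 in the control group. All 4 rosuvastatin mice lay above every control, 3 of 4 pitavastatin mice did, and the pravastatin and atorvastatin mice overlapped with the controls. Group means were 9.76 ± 0.58 for pitavastatin, 9.24 ± 0.55 for pravastatin, 9.95 ± 0.19 for rosuvastatin and 9.28 ± 0.17 in atorvastatin hearts, and 8.86 ± 0.30 in control hearts (SD, n = 4 each). The order of levels was rosuvastatin, pitavastatin, atorvastatin, pravastatin and control, and neighbours in that order overlapped between mice. Over control the difference was 0.90 in pitavastatin (1.87-fold), the value that chose the gene, and 1.09 in rosuvastatin (2.13-fold), also a value that chose it. In the groups that did not choose it, Tagln was 0.38 above control in pravastatin (SE 0.26, 95% interval -0.16 to 0.92) and 0.42 above in atorvastatin (SE 0.26, interval -0.12 to 0.96). The intervals of both include 0, and the adjusted p was 0.992 for pravastatin and 0.964 for atorvastatin in limma over all 22518 tested probe sets. The 4 comparisons share the same 4 control mice, so a low or high control moves all of them together.

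**Figure D1:**
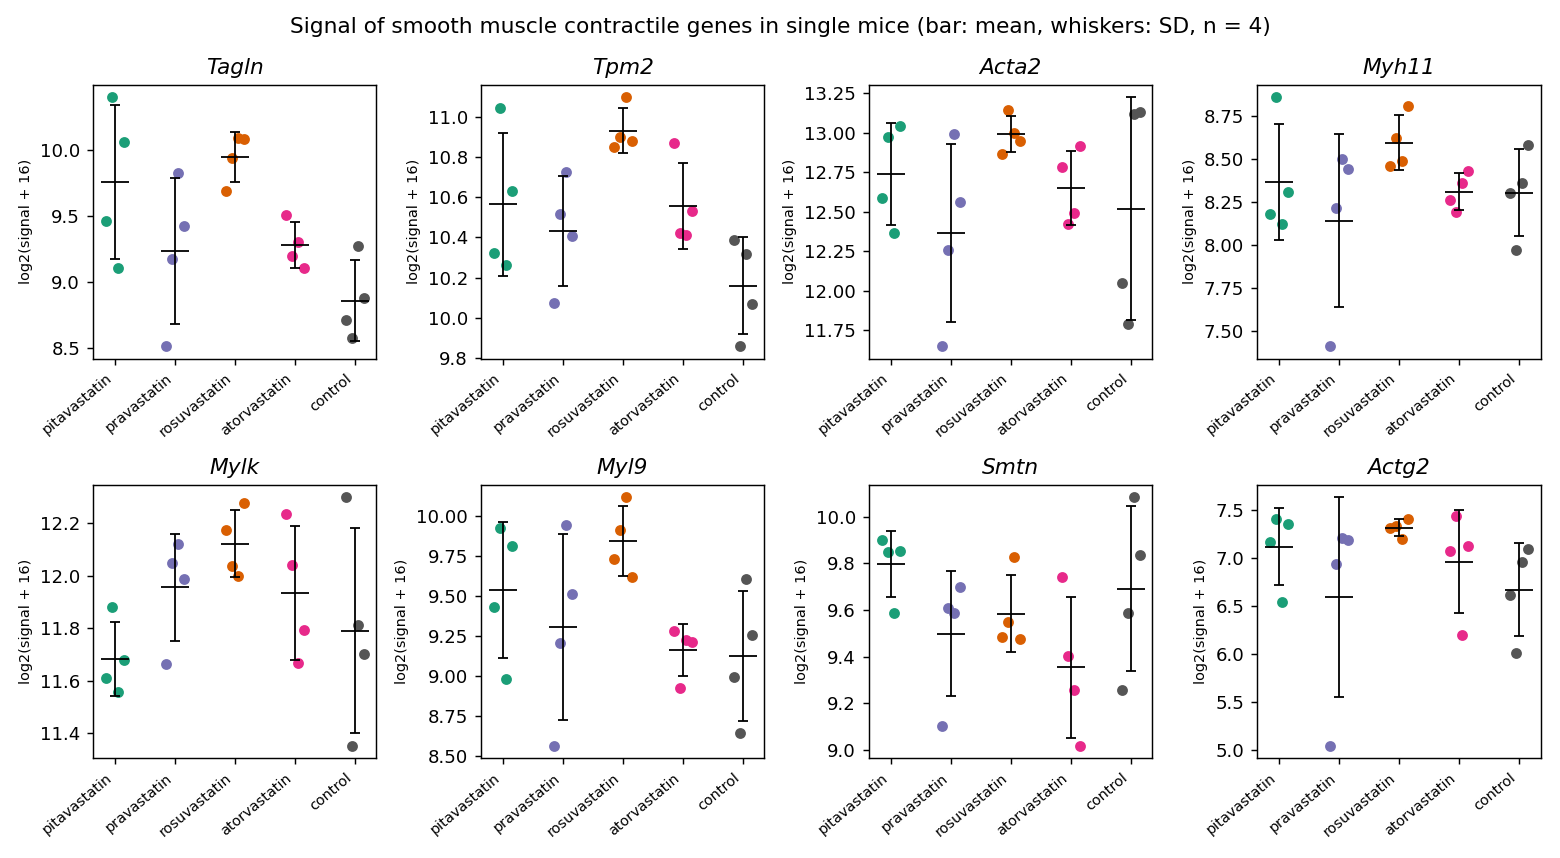
Each panel plots log2(signal + 16) of 1 smooth muscle gene (its brightest tested probe set) in every mouse, with the statin groups left of the control group, each point 1 mouse, each bar the group mean and each whisker the SD (n = 4). The 4 rosuvastatin mice lie at 9.69 or above for Tagln, where the highest control is at 9.28.

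Tpm2 encodes a tropomyosin of smooth and skeletal muscle. Its brightest probe set, 1419738_a_at, stood at 10.32, 11.04, 10.26 and 10.63 in the pitavastatin mice, at 10.07, 10.52, 10.73 and 10.41 in the pravastatin mice, at 10.85, 10.90, 11.10 and 10.88 in the rosuvastatin mice and at 10.87, 10.42, 10.41 and 10.53 in the atorvastatin mice, against 10.39, 9.86, 10.32 and 10.07 in the controls. The rosuvastatin mice lay above all controls and so did the atorvastatin mice, whose lowest value was 10.41 against a highest control of 10.39. The rosuvastatin mean was 10.93 ± 0.11 against 10.16 ± 0.24 in control (SD, n = 4), a difference of 0.77 (1.71-fold) that chose the gene. The other differences from control were 0.41 in pitavastatin (SE 0.17, adjusted p = 0.9999), 0.27 in pravastatin (SE 0.17, adjusted p = 0.992) and 0.40 in atorvastatin (SE 0.17, adjusted p = 0.964, limma).

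The 4 tested probe sets of Tpm2 did not measure alike. Tpm2 1425028_a_at followed the brightest one (r = 0.94 of deviations from the group means over 20 mice) and was 0.75 above control in rosuvastatin. Tpm2 1419739_at correlated with the brightest at 0.52, and Tpm2 1449577_x_at at -0.02. The _x_at suffix marks probe sets that can cross-hybridise to other transcripts, and that probe set was 0.52 above control in rosuvastatin (SE 0.30) but 0.40 below control in atorvastatin (difference -0.40, SE 0.30).

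The myosin side of the apparatus comes next. Myl9, the regulatory light chain, stood at 9.43, 9.93, 8.98 and 9.81 in the pitavastatin mice, at 8.56, 9.20, 9.95 and 9.51 in the pravastatin mice, at 9.73, 9.92, 10.12 and 9.62 in the rosuvastatin mice and at 9.28, 8.92, 9.22 and 9.21 in the atorvastatin mice, against 8.99, 8.64, 9.61 and 9.25 in the controls. The rosuvastatin mice all lay above the controls, narrowly, with the lowest of them at 9.62 and control 3 at 9.61. The rosuvastatin mean was 9.84 ± 0.22 against 9.12 ± 0.41 in control (SD, n = 4), a difference of 0.72 (1.65-fold; SE 0.25, interval 0.19 to 1.25) with an unadjusted p of 0.0099 and an adjusted p of 0.452 in limma. With the other statins Myl9 differed from control by 0.41 in pitavastatin, 0.18 in pravastatin and 0.04 in atorvastatin (SE 0.25 each), all within an interval that includes 0.

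Myh11, the smooth muscle myosin heavy chain, did not separate any statin group from control. Its brightest probe set, 1448962_at, stood at 8.18, 8.86, 8.12 and 8.31 in the pitavastatin mice, at 7.41, 8.21, 8.50 and 8.44 in the pravastatin mice, at 8.46, 8.62, 8.49 and 8.81 in the rosuvastatin mice and at 8.26, 8.19, 8.36 and 8.43 in the atorvastatin mice, against 8.31, 7.97, 8.36 and 8.58 in the controls. Every statin group overlapped with the controls, and the difference from control was 0.06 for pitavastatin, -0.16 for pravastatin, 0.29 for rosuvastatin (0.45 with the array's median signal in the model) and 0.01 for atorvastatin (-0.02 with quantile normalization; SE 0.21 each). The second probe set, Myh11 1418122_at, ran the other way in rosuvastatin, with 4.69, 6.52, 5.50 and 7.22 in the rosuvastatin mice against 7.35, 6.86, 6.93 and 8.04 in the controls. That difference was -1.31 (SE 0.54, adjusted p = 0.452, limma), and the deviations of Myh11 1418122_at from the group means followed the median signal of the array at r = 0.81 over 20 mice, against 0.42 for Myh11 1448962_at. The part of array brightness in the value of the second probe set was not tested.

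Mylk, the kinase that phosphorylates the light chain, differed from control by -0.11 for pitavastatin, 0.16 for pravastatin, 0.33 for rosuvastatin and 0.14 for atorvastatin (1425506_at, SE 0.16 each). Its rosuvastatin mice, at 12.17, 12.04, 12.00 and 12.28, all lay within the range of the controls, which stood at 12.30, 11.35, 11.81 and 11.70. The rosuvastatin interval was -0.0027 to 0.67 and the adjusted p 0.452 in limma. The second tested probe set, Mylk 1425505_at, was 0.20 above control in rosuvastatin (SE 0.20).

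**Figure D2:**
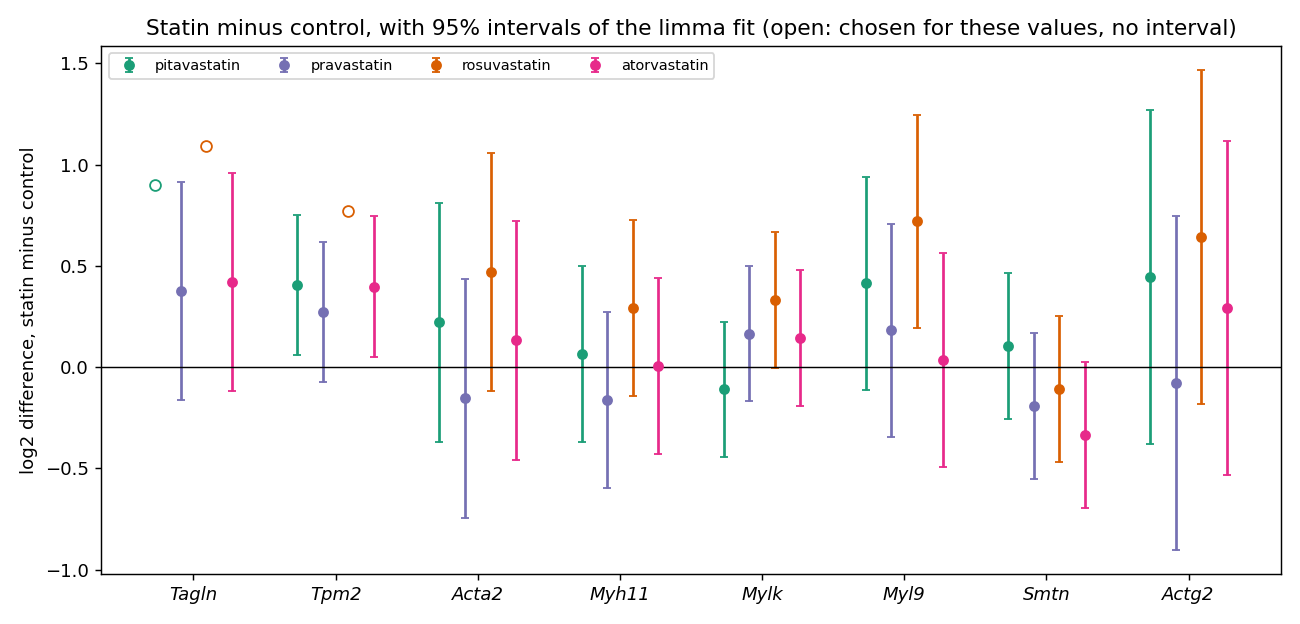
The difference of each statin group from control on the log2(signal + 16) scale for the brightest tested probe set of 8 smooth muscle genes, with 95% intervals of the limma fit as bars. Open points are values that chose the gene and carry no interval; the Myl9 rosuvastatin point at 0.72 has an interval of 0.19 to 1.25.

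On the actin side, Acta2, smooth muscle alpha actin and the standard marker of the cell type, stood at 12.59, 12.97, 12.36 and 13.04 in the pitavastatin mice, at 11.65, 12.26, 12.99 and 12.56 in the pravastatin mice, at 12.87, 13.14, 13.00 and 12.95 in the rosuvastatin mice and at 12.78, 12.42, 12.49 and 12.91 in the atorvastatin mice, against 12.05, 11.79, 13.12 and 13.13 in the controls. The controls alone spanned more than any statin group except pravastatin, and every statin group overlapped with them. The difference was 0.22 for pitavastatin, -0.15 for pravastatin, 0.47 for rosuvastatin and 0.13 for atorvastatin (SE 0.28 each), and the rosuvastatin adjusted p was 0.517 in limma. The _s_at suffix of this probe set marks probes shared by several transcripts. A part of the Acta2 signal may therefore belong to another transcript, such as that of another actin, which was not tested.

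Actg2, the gamma actin of enteric smooth muscle, stood at 7.16, 7.41, 6.54 and 7.36 in the pitavastatin mice, at 5.04, 6.93, 7.21 and 7.19 in the pravastatin mice, at 7.32, 7.34, 7.20 and 7.41 in the rosuvastatin mice and at 7.08, 7.44, 6.20 and 7.13 in the atorvastatin mice, against 6.61, 6.01, 6.96 and 7.10 in the controls. The rosuvastatin mice lay above all controls. The difference was 0.64 in rosuvastatin (SE 0.39, adjusted p = 0.527), 0.45 in pitavastatin, -0.08 in pravastatin (0.03 with quantile normalization) and 0.29 in atorvastatin (-0.03 with array weights; SE 0.39 each, limma). The rosuvastatin value of Actg2 was 1.08 with the array's median signal in the model and 1.03 with each array centred on its median.

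Smtn, a cytoskeletal protein of contractile smooth muscle, stood at 9.90, 9.85, 9.59 and 9.86 in the pitavastatin mice, at 9.10, 9.61, 9.59 and 9.70 in the pravastatin mice, at 9.49, 9.55, 9.83 and 9.48 in the rosuvastatin mice and at 9.74, 9.40, 9.26 and 9.02 in the atorvastatin mice, against 9.26, 9.59, 10.08 and 9.84 in the controls. Every statin group overlapped with the controls, and the highest single value was that of control 3. On the deposited scaling, Smtn was above control for pitavastatin and below it for the other statins: its difference was 0.11 for pitavastatin, -0.19 for pravastatin, -0.11 for rosuvastatin (0.27 with each array centred on its median) and -0.34 for atorvastatin (SE 0.17 each), and the smallest adjusted p was 0.864 in limma. Cnn1, below the brightness limit, averaged 5.68 ± 0.47 for pitavastatin, 5.41 ± 0.72 for pravastatin, 5.60 ± 0.67 for rosuvastatin and 5.59 ± 0.48 for atorvastatin, and 5.02 ± 0.89 for control (SD, n = 4 each). Lmod1, also below it, averaged 6.54 ± 0.95 for pitavastatin, 6.44 ± 0.45 for pravastatin, 6.81 ± 0.49 for rosuvastatin and 6.40 ± 0.70 for atorvastatin, and 6.37 ± 0.45 for control (SD, n = 4 each). Neither was tested, and in both every statin group overlapped with the controls.

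Over the 13 tested probe sets, limma called 0 against control with each of the 4 statins at an adjusted p of 0.05, where the share of all tested probe sets called was 0% in each. The mean of the 4 statins against control also called 0 of the 13 (0% of all), and the F test over the 5 groups called 0 of the 13 (0.00444% of all). Tagln and Tpm2 were chosen for such differences, so counts at an unadjusted p of 0.05 are given for the 8 probe sets of the other 6 genes. In limma the count was 0 for pitavastatin (beside 435 of all 22518), 0 for pravastatin (886), 2 for rosuvastatin (2469) and 0 for atorvastatin (1028), and it was 0 for the mean of statins (686) and 0 for the F test (1404). The 2 for rosuvastatin were Myl9, above control, and Myh11 1418122_at, below it. The 95% interval had a median half-width of 0.36 (log2) over all tested probe sets, and the residual SD of Tagln, 0.40, and of Acta2, 0.44, stood at the 79.7th and 82.3rd percentile of all tested.

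In rosuvastatin, 5 of the 13 probe sets had all 4 statin mice above all 4 controls, beside 1.87% of all tested probe sets; 3 of the 5 belong to Tagln and Tpm2, which were chosen in this comparison, and among the 8 probe sets of the other genes the count was 2, Myl9 and Actg2. In atorvastatin it was 1 of 13, Tpm2 1419738_a_at, beside 0.799% of all. In pitavastatin it was 0 of 13 beside 0.924%, and in pravastatin 0 of 13 beside 1.92%. None of the 13 lay wholly below the controls in any statin, where the shares of all were 0.764% for pitavastatin, 1.03% for pravastatin, 2.66% for rosuvastatin and 0.573% for atorvastatin. With Tagln and Tpm2 left aside and the brightest probe set taken for each of the other 6 genes, 5 were above control for pitavastatin (median 0.16, against -0.0034 over all tested probe sets) and 2 for pravastatin (-0.12 against -0.02). The count was 5 for rosuvastatin (0.40 against -0.02) and 5 for atorvastatin (0.08 against -0.03). With Tagln and Tpm2 counted in, as a description, 7 of 8 were above control for pitavastatin, 4 for pravastatin, 7 for rosuvastatin and 7 for atorvastatin. Of all tested probe sets, 49.0% were above control for pitavastatin, 45.0% for pravastatin, 45.9% for rosuvastatin and 43.9% for atorvastatin. These shares also stand beside the counts of the lists below. Without rosuvastatin 3 and atorvastatin 2, the arrays with the lowest and the highest median signal, the rosuvastatin difference was 1.04 for Tagln and 0.72 for Tpm2, and the calls stayed at 0.

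The levels of other marker lists stood beside these values. In rosuvastatin 7 of 7 arterial wall matrix genes were higher than control (median 0.14) with a summed signal of 5667 to 8947 against 5106 to 5852 in control, 8 of 10 fibroblast markers were higher (median 0.11; 25083 to 30938 against 24588 to 26974), and 10 of 10 ventricular cardiomyocyte markers were lower (median -0.19; 204393 to 429941 against 298815 to 358316). In pitavastatin 9 of 10 endothelial markers were higher (median 0.15; 29365 to 34011 against 29520 to 32698) and all 4 measured atrial markers were higher (median 0.40; 7609 to 15895 against 7091 to 9502). None of these genes passed in limma at an adjusted p of 0.05 (at an unadjusted p of 0.05, 1 arterial wall matrix gene and 1 cardiomyocyte marker for rosuvastatin and 2 endothelial markers for pitavastatin), none of the markers was at 0, and their part in the smooth muscle values was not tested. For pravastatin 0 of 7 arterial wall matrix genes and 0 of 10 cardiomyocyte markers were above control, and for atorvastatin 2 of 7 and 0 of 10. All 4 measured atrial markers were also higher in rosuvastatin (median 0.20, summed signal 7263 to 12330). Of these 4, 2 were above control for pravastatin and 1 for atorvastatin.

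A second question was whether the members vary together from mouse to mouse. It was asked on deviations from each group's mean, which do not contain the differences between groups for which Tagln and Tpm2 were chosen. The 7 other tested genes, each by its brightest tested probe set, all deviated in the same direction as Tagln. Pearson's r over 20 mice was 0.91 for Myl9, 0.83 for Tpm2, 0.80 for Myh11, 0.76 for Acta2, 0.69 for Actg2, 0.63 for Smtn and 0.45 for Mylk. Their median, 0.76, stands beside a median of 0.03 and a 5th to 95th percentile range of -0.37 to 0.36 over the 22517 other tested probe sets. All probe sets of a mouse share its tissue sample and its array.

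The permutation p, two-sided with mice permuted within groups (100000 resamples), was 9e-05 for Myl9, 0.00056 for Tpm2, 0.00064 for Acta2, 0.00153 for Myh11, 0.00175 for Smtn, 0.00513 for Actg2 and 0.0391 for Mylk. Spearman's rho was 0.88 for Myl9 (permutation p = 9e-05), 0.78 for Tpm2 (p = 0.00201), 0.75 for Acta2 (p = 0.00295), 0.71 for Myh11 (p = 0.00262), 0.62 for Smtn (p = 0.00577), 0.58 for Actg2 (p = 0.0139) and 0.48 for Mylk (p = 0.0467). These are 7 comparisons with p unadjusted. Without the 2 mice whose Tagln was farthest from the median, pitavastatin 2 and pravastatin 1, r was 0.86 for Myl9, 0.72 for Acta2, 0.68 for Tpm2, 0.57 for Smtn, 0.51 for Myh11, 0.47 for Actg2 and 0.23 for Mylk. The r of Myh11 and Actg2 also fell clearly, and that of Mylk was the lowest with and without those mice. No p was computed without them. With the median signal of the array removed, r was 0.91 for Myl9, 0.85 for Tpm2, 0.81 for Myh11, 0.75 for Acta2, 0.73 for Actg2, 0.64 for Smtn and 0.43 for Mylk.

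**Figure D3:**
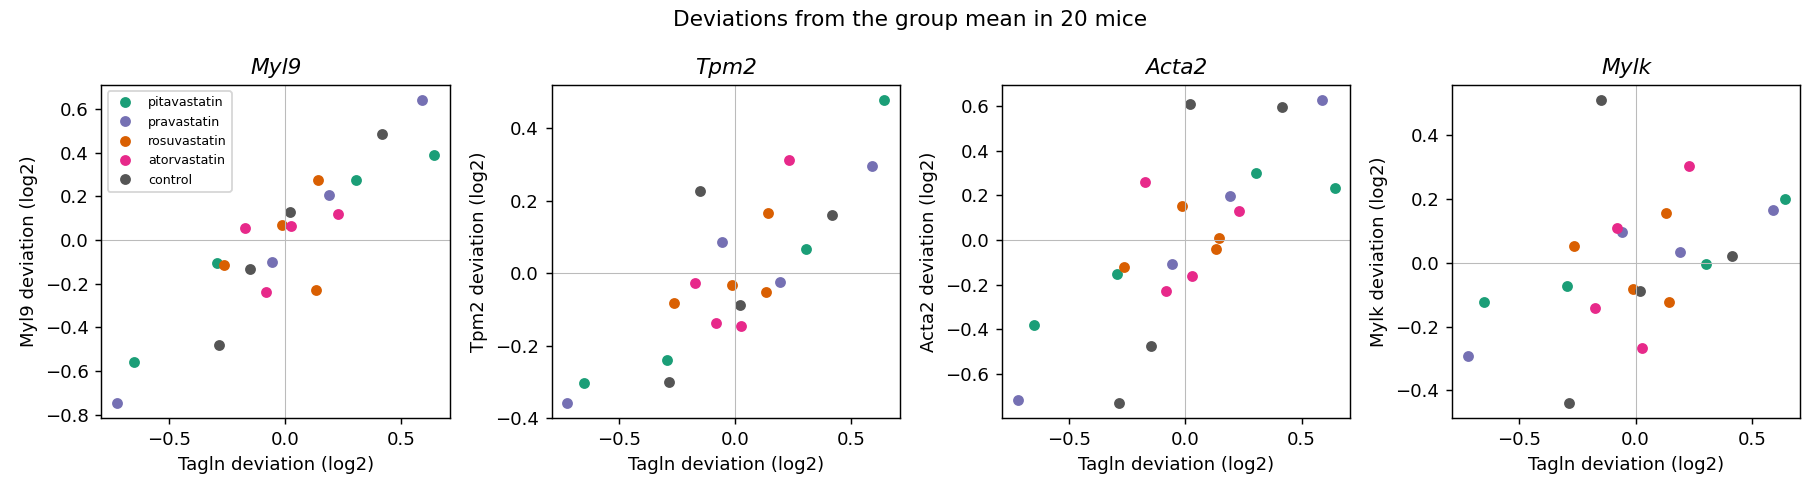
Deviation of each of the 20 mice from its group mean for Myl9, Tpm2, Acta2 and Mylk (vertical, log2) against that for Tagln (horizontal, log2), with the point colour giving the group. Myl9 follows Tagln closely (r = 0.91) and Mylk loosely (r = 0.45).

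**Figure D4:**
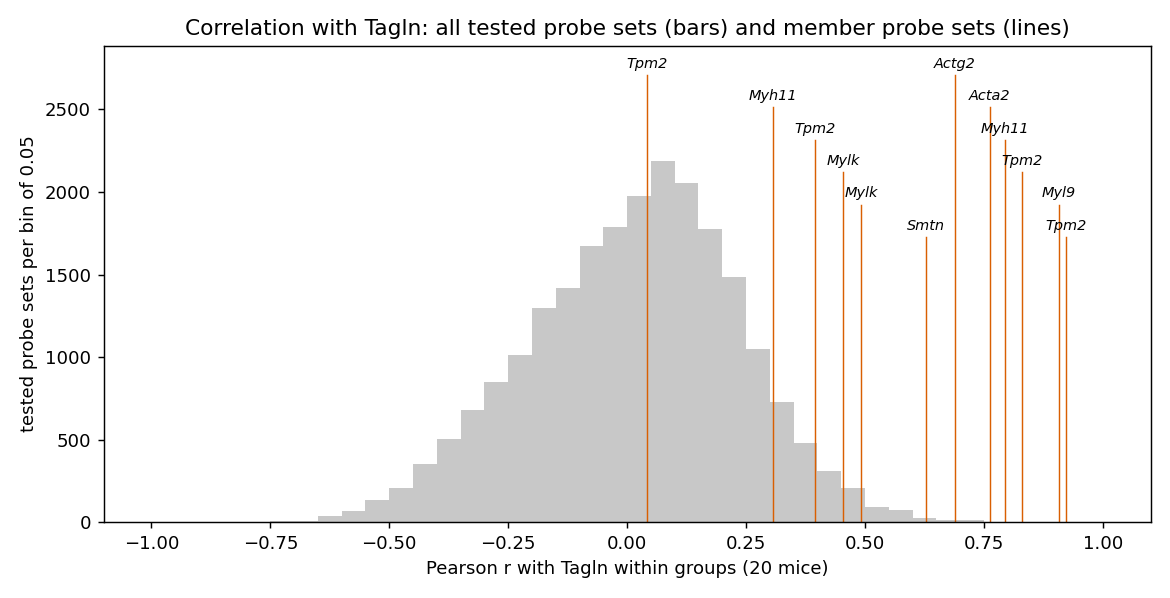
Number of tested probe sets at each value of Pearson's r with Tagln within groups (horizontal axis) over 20 mice, with the smooth muscle genes marked. The bulk of the 22517 probe sets lies between -0.37 and 0.36, and Myl9 stands at 0.91.

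To adjust over the whole table, the slope of every tested probe set on Tagln within groups was fitted in limma. It called 2 of the 22517 probe sets as positive (0.00888%) and 0 as negative (0%), and both are members: Tpm2 1425028_a_at with a slope of 0.68 per unit of Tagln (SE 0.08, adjusted p = 0.00317) and Myl9 with 0.89 (SE 0.11, adjusted p = 0.00317). The probe sets ranked next by p were Tpm2 1419738_a_at (rank 3, slope 0.52, SE 0.10, adjusted p = 0.247), Acta2 (rank 4, slope 0.85, SE 0.18, adjusted p = 0.737) and Myh11 1448962_at (rank 5, slope 0.61, SE 0.13). Actg2 ranked 10 and Smtn 35, while the 2 probe sets of Mylk ranked 477 and 898. Lower still were Tpm2 1419739_at at rank 1456, Myh11 1418122_at at 2724 and Tpm2 1449577_x_at at 19067. Their within-group r with Tagln was 0.40, 0.31 and 0.04. The call depends on 1 mouse: without pravastatin 1 the fit called 0 (smallest adjusted p = 0.0849), as it did with each array centred on its median (0.0798), while with the array's median signal in the model the adjusted p of both was 0.000786.

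Some mice were low or high in many of the genes at once. Pitavastatin 3 and pravastatin 1 were each the lowest of their group in all 8 genes, and pravastatin 1 was the lowest of all 20 mice in 5 of them. Control 2 was the lowest control in 7 of 8, pravastatin 3 the highest of its group in 7 of 8 and pitavastatin 2 in 6 of 8. The rosuvastatin mice had no such order: rosuvastatin 1 was lowest in 4 genes and rosuvastatin 3 highest in 4 and lowest in 2. The array medians of the low mice were 80.2 in pitavastatin 3, 63.0 in pravastatin 1 and 80.5 in control 2, each the lowest of its group. In the other groups the lowest array medians were those of rosuvastatin 3 (41.7) and atorvastatin 1 (65.2). Atorvastatin 1 was the highest of its group in 5 genes and the lowest in 0. The part of the array median in these orders was not tested.

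**Figure D5:**
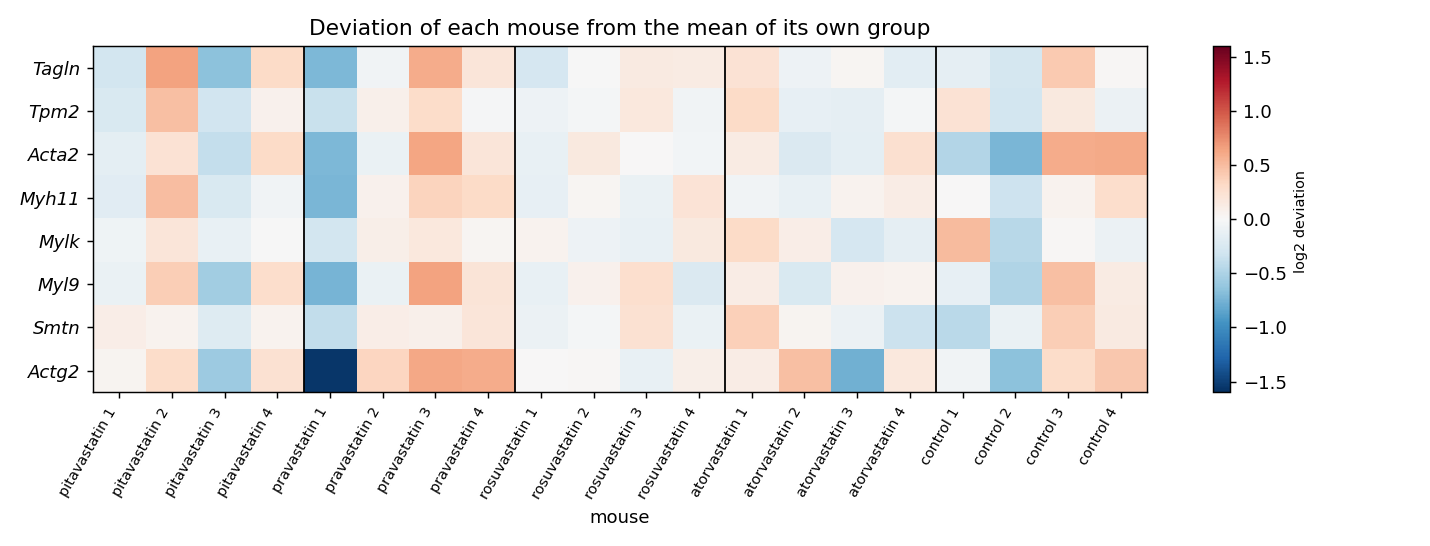
Deviation from the group mean (log2, colour, blue low and red high) of 8 smooth muscle genes (down) in each of the 20 mice (across, statin groups left of control). Pitavastatin 3 and pravastatin 1 are below their group mean in all 8 genes.

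Among the 8 genes themselves, all 28 pairs correlated above 0 within groups, between 0.15 and 0.91 with a median of 0.65, a description over the same 20 mice. The dim members gave weaker values: Cnn1 had r = 0.48 with Tagln (permutation p = 0.0474, rho = 0.36, p = 0.155) and Lmod1 had r = 0.51 (permutation p = 0.0629, rho = 0.51, p = 0.0763). Cnn1 and Actg2 also followed the array median, at r = 0.54 and 0.58.

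The genes whose level was most like that of Tagln over the 20 mice, groups included, were taken from 11228 genes as a description, with the probe set of each gene that had the highest r. They were Tpm2 (r = 0.94, probe set 1425028_a_at), Myl9 (0.90), Cdc25b (0.74), Tpm1 (0.74) and Acta2 (0.74). Of these 5, 3 are members, beside 7 members among all 11228 genes. Tagln and Tpm2 were both chosen for their rosuvastatin values, so the pooled r of Tpm2 contains that choice. Within groups the r of this Tpm2 probe set was 0.92. Tpm1 is another tropomyosin gene, abundant in cardiac muscle; its probe sets disagreed, with a within-group r with Tagln of 0.63 for the one ranked here and 0.07 for the brightest. By the ranked probe set, Tpm1 averaged 11.14 ± 0.10 for pitavastatin, 11.10 ± 0.14 for pravastatin, 11.45 ± 0.06 for rosuvastatin and 11.16 ± 0.11 in atorvastatin hearts, and 10.99 ± 0.35 in control hearts (SD, n = 4 each). Cdc25b, a cell cycle phosphatase, averaged 7.30 ± 0.13 for pitavastatin, 7.12 ± 0.20 for pravastatin, 7.31 ± 0.10 for rosuvastatin and 7.19 ± 0.11 for atorvastatin, and 7.14 ± 0.16 in control hearts (SD, n = 4 each).

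Genes that act on the apparatus were taken from lists. Of 12 measured genes of serum response factor and its cofactors, 8 were above control for pitavastatin, 10 for pravastatin, 9 for rosuvastatin and 8 for atorvastatin, and 0 passed in limma (at an unadjusted p of 0.05, 0 for pitavastatin, 2 for pravastatin, 1 for rosuvastatin and 1 for atorvastatin). Myocd, the cardiac and smooth muscle cofactor of serum response factor, was above control by 0.05 for pitavastatin, 0.52 for pravastatin, 0.42 for rosuvastatin and 0.35 for atorvastatin (SE 0.14 each; F test adjusted p = 0.442, limma).

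The 18 other smooth muscle genes measured gave other counts: 12 were above control for pitavastatin, 6 for pravastatin, 9 for rosuvastatin and 5 for atorvastatin, and 0 passed in limma (3 at an unadjusted p of 0.05, all for rosuvastatin). Their median within-group r with Tagln was 0.07. Itga8, an integrin chain, was 0.50 above control in rosuvastatin (SE 0.14), with 7.98 ± 0.04 against 7.48 ± 0.20 (SD, n = 4), and above it by 0.09 for pitavastatin, 0.21 for pravastatin and 0.08 for atorvastatin (F test adjusted p = 0.678, limma). Of the 12 genes of TGF beta signalling, which drives contractile gene expression in cultured smooth muscle, 4 were above control for pitavastatin, 10 for pravastatin, 10 for rosuvastatin (median 0.16) and 9 for atorvastatin, and 0 passed in limma (at an unadjusted p of 0.05, 1 for pravastatin, 3 for rosuvastatin and 1 for atorvastatin). Ccn2, a matrix protein induced by that pathway, was above control by 0.03 for pitavastatin, 0.11 for pravastatin, 0.49 for rosuvastatin and 0.76 for atorvastatin (SE 0.24 each; F test adjusted p = 0.696, limma). The median within-group r with Tagln was -0.06 for the cofactor list, 0.02 for TGF beta signalling, 0.25 for fibroblast markers, 0.17 for arterial wall matrix, 0.06 for endothelial, 0.05 for pericyte and 0.05 for ventricular cardiomyocyte markers. For the 4 measured atrial markers it was 0.22.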

How the data were processed

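Left ventricle RNA of 20 mice was measured on 1 array each. The deposited signal intensity values are on a linear scale, made with MAS5 per the submitters' processing notes, and every array has the same mean, 500.0, after trimming 2% at each end; the version and other steps are not given in the sources used here, and probe-level files were not used. With arrays no depth applies, and the number of arrays limits the precision. From these values log2(signal + 16) was taken, 64 array controls were left out and the brighter 50% of probe sets by mean log2 (signal above 81.8) were kept. limma 3.58.1 in R 4.3.3 fitted 1 mean per group with a trended prior (15 residual degrees of freedom, 4.23 prior), Benjamini-Hochberg adjusted over 22518 probe sets. Where a gene had several probe sets, the brightest tested one stood for it, except in the ranking of genes most like Tagln, which took the one with the highest r. Groups come from the sample titles, and each array is a separate mouse. The fit and the correlation test were tested on simulated data.

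The members and lists were chosen with earlier results of these data known. The planned adjustment of the correlations over the members alone was replaced by unadjusted permutation p values and a limma slope adjusted over all probe sets. Genes named outside the members were the 5 most like Tagln over the mice and, from each list, genes with the smallest F test p. Other scalings, pseudocounts 1 and 64, filters, weights, a replicate block and each array left out were tried. Gene symbols came from the platform annotation, in which 34945 probe sets have 1 symbol, 932 several and 9160 none.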

Additional observations from a re-analysis of the deposited data

Results flagged for a closer look

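In all, 3 single values stood far from the other mice of their group by Dixon's test at the 95% level. They came from 65 groups of 4 looked at, where chance gives about 1 in 20, close to the share found. Actg2 in pravastatin 1 was at 5.043, against 6.935 to 7.209 in the other pravastatin mice. Myh11 1418122_at in pitavastatin 3 was at 6.812, against 7.185 to 7.231 in the others of its group. Smtn in pitavastatin 3 was at 9.586, against 9.848 to 9.899. The 2 mice are those that were lowest of their group in all 8 genes, and the Actg2 and Smtn values here are among those lowest values.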

How the results depend on the processing

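The counts of member probe sets called stayed at 0 in each of the 4 statin comparisons, in the mean of statins and in the F test, under every scaling, pseudocount, filter, weight, replicate block and array left out that was run. With 1 array left out at a time, the Tagln difference lay between 0.69 and 1.12 in pitavastatin and between 1.00 and 1.23 in rosuvastatin, and the Tpm2 difference between 0.67 and 0.85 in rosuvastatin. With each array centred on its median, the Tpm2 difference in rosuvastatin was 1.15, that of Acta2 0.85, of Myh11 0.67 and of Mylk 0.71. In the same setting the Myl9 difference was 1.10 and the Smtn difference 0.27, which is -0.11 as reported. This scaling moves the median of all tested probe sets in rosuvastatin from -0.02 to 0.36. Relative to that median Tpm2 was at 0.79 and Smtn at -0.09. Among the differences of single genes, 8 of 373 turned sign in other settings, all of them uncalled: Smtn in rosuvastatin as above, Actg2 in pravastatin (0.03 with quantile normalization, 0.02 with centring, 0.19 with array weights and 0.04 with each array's median signal in the model) and in atorvastatin (-0.03 with array weights), and Myl9 (-0.0021) and Myh11 (-0.02) in atorvastatin with quantile normalization. With 1 array left out, 23 of 580 turned, to at most 0.44 in size. The 2 slopes on Tagln became 0 with each array centred on its median (smallest adjusted p = 0.0798), became 1 (Myl9) with 1 probe set per gene, and lay between 0 and 3 with 1 array left out (0 without pravastatin replicate 1, 3 without control replicate 1). The cause was not tested. The number of members correlated with Tagln was 7, between 6 and 7 with 1 array left out, 8 of 9 with no filter, and 9 of 9 with no filter and the median signal as a covariate; Mylk lost its permutation p in 9 of the 20 single-array runs, up to 0.166 without pravastatin replicate 1. Apart from the chosen values of Tagln and Tpm2, 370 differences of single genes in other settings and 580 with 1 array left out moved by less than the spread between mice, and 3 (Myh11, Mylk and Smtn, centred) by more. Same-numbered mice of different groups correlated between -0.54 and 0.69 (median 0.08, 19 of 40 pairs over 0.1). Differently numbered mice correlated between -0.76 and 0.74 (median -0.04, 46 of 120 pairs over 0.1). Both ranges are wide, so whether the numbers pair the mice cannot be told from them. The replicate block kept the slope count at 2 and each count of member probe sets called at 0. With it the F test called 6 of all tested probe sets, against 1 without it. Such totals moved more with array weights and without control replicate 1. In both, the F test called more than with the block. With array weights, 16 were called for pravastatin, 12 for rosuvastatin and 0 for pitavastatin and atorvastatin. Without control replicate 1, 23 were called for pravastatin, 17 for rosuvastatin, 18 for atorvastatin and 0 for pitavastatin. The main fit called 0 for each statin. Array weights and a fit of only the groups compared were not run for the slope. With 4 mice per group, differences smaller than about 0.36 on the log2 scale could not be told from 0 by the unadjusted 95% interval of a typical probe set. Calls used p adjusted over all tested probe sets, so a called difference had to be larger than that. Myl9 in rosuvastatin, at 0.72, was not called (adjusted p = 0.452, limma). The size needed for a call was not computed, so uncalled differences above 0.36 are not excluded.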

Other observations

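The paralogs of the members, which build the same structures in other cells, were also read. Of 19 measured, 12 were above control for pitavastatin (median 0.05), 8 for pravastatin (-0.02), 12 for rosuvastatin (0.09) and 9 for atorvastatin (-0.02), and 0 passed in limma (1 at an unadjusted p of 0.05, for pitavastatin). Their within-group r with Tagln had a median of 0.07 and ranged between -0.51 and 0.39. Myl12b, a regulatory light chain of nonmuscle myosin, was above control by 0.20 for pitavastatin (SE 0.07, F test adjusted p = 0.787, limma). Of 7 cardiomyocyte stress genes, 4 were above control for pitavastatin and rosuvastatin and 2 for pravastatin and atorvastatin; Myh7, the slow myosin heavy chain, was above control by 0.57 for atorvastatin (SE 0.18, F test adjusted p = 0.729, limma). Of 8 macrophage markers, 6 were above control for rosuvastatin (median 0.13) and 3 for atorvastatin (-0.05). Among endothelial markers, the highest within-group r with Tagln was 0.60, that of Egfl7. Car3, the only adipocyte marker measured, was 0.98 below control for rosuvastatin (difference -0.98, SE 0.46).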
